A study of Drosophila melanogaster with 6 samples.

Results

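The fourth chromosome of Drosophila melanogaster is represented by 106 genes here, of the 17807 rows of the expression table, taken as every row whose FlyBase identifier lies on chromosome 4 in the Ensembl annotation of BDGP6.54, the dm6 assembly. The chromosome has 112 rows in all, and the other 6 are not analysed here. Of the 106 genes, 73 are annotated as protein-coding, 25 as noncoding RNAs, 7 as pseudogenes and 1 as a small nucleolar RNA. RNA was measured in intestinal stem cells and enteroblasts (ISC/EB), the progenitors of the adult fly midgut, sorted by a green fluorescent reporter. The H1 RNAi group, with 3 libraries, carried esgts, UAS-GFP and, in addition, the transgene named UAS H1 RNAi 1, which targets the linker histone H1 by RNA interference. The control group, also with 3 libraries, carried esgts and UAS-GFP and no RNAi transgene in its label. In both groups the temperature-sensitive esg driver (esgts) switches on the transgenes in progenitor cells. Only 1 RNAi line is named, and each library came from 70 pooled guts. The sample labels give 4 days of induction at 29 °C, whereas the growth protocol, which speaks of a different transgene, gives 3-day-old flies moved from 18 °C to 29 °C for 1 day. The question asked here was how genes of this chromosome were expressed when H1, which sits on the linker DNA outside the nucleosome core, was targeted.

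As background, the fourth chromosome is the smallest of the fly and most of it is packaged like heterochromatin, with heterochromatin protein 1 (HP1a) and methylated histone H3 lysine 9, yet it holds many actively transcribed genes. The protein Pof coats the transcribed genes of this chromosome and is known to raise their output, while HP1a and the methyltransferase eggless (egg) are known to act there as well. The genes are often long, with introns that contain transposon remnants, and they encode factors as different as the Hedgehog effector Ci, the Polycomb recruiter Pho, Eph and plexin receptors, and translation factors.

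Values are TPM as deposited by the authors, a unit that corrects for gene length and for the size of the library and so lets levels be compared between genes. The depth of the libraries is unknown. The libraries had 7767 to 8316 genes at 1 TPM or more, and the mean correlation of a library with the 5 others over all tested genes was 0.963 to 0.972 on the log2(TPM + 1) scale, lowest for control B. All 23 His1 copies were listed at 0 in all 6 libraries, so the target of the RNAi could not be measured. Of 12 progenitor markers compared between the groups, 9 were tested and 0 were called. A comparison of the groups cannot tell which cell type was sorted. The 1 marker with an unadjusted p under 0.05 (limma) was mira, which was higher in H1 RNAi without overlap. It averaged 167 TPM in H1 RNAi and 108 TPM in control. Among the untested markers, Snapin was listed at 0 throughout, zfh1 peaked at 0.05 TPM (H1 RNAi C) and Notum at 0.11 TPM (control B). The progenitor factors Sox100B and Sox21a were at 645 ± 10.6 and 315 ± 37.6 TPM in H1 RNAi and at 670 ± 63.3 and 284 ± 72.3 TPM in control (SD, n = 3 per group). Of 13 enteroendocrine markers 4 were called lower in H1 RNAi (NPF, Tk, IA-2 and 7B2) and 9 had an unadjusted p under 0.05 (limma), of which Mip and CCHa2 were higher, with log2 fold changes of 1.20 and 1.09. The summed level of the list was 1132 to 1664 TPM in H1 RNAi and 2522 to 3360 TPM in control, most of it from NPF, at 1139 ± 226 TPM in H1 RNAi and 2309 ± 327 TPM in control (SD, n = 3 each). Of 9 neuronal markers 6 were tested, none was called and 5 had an unadjusted p under 0.05 (limma), with sums of 13.9 to 16.6 TPM in H1 RNAi and 21.4 to 26.4 TPM in control. The sums of 14 enterocyte markers overlapped between groups, at 764 to 2171 TPM in H1 RNAi and 523 to 1742 TPM in control. In sorted bulk cells, fewer cells of a type and less RNA per cell cannot be told apart. Nothing in the labels says that the replicates were raised independently, so the p-values speak only to the scatter among these 6 libraries, which may be technical.

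Among the genes of the fourth chromosome analysed here, 1 changed past the threshold, unc-13, a priming factor of synaptic vesicles. It was about 2.05 times higher in H1 RNAi. None was called lower. Of the 106 genes, 62 reached 1 TPM in at least 3 of the 6 libraries and were tested together with all other such genes, 8124 in all (limma on log2(TPM + 1), Benjamini-Hochberg adjusted p under 0.05). The 1 call among 62 stands beside a call rate of 2.83% over all tested genes, of which 2.28% were higher and 0.554% lower in H1 RNAi. The median log2 fold change, H1 RNAi over control, was -0.06 over the 62 genes, with quartiles of -0.20 and 0.07, and 0.14 over all tested genes, with quartiles of -0.05 and 0.32. On the TPM as deposited, the typical gene of the chromosome was thus listed near its control level, and the typical tested gene slightly above it. With trimmed-mean (TMM) scaling the medians were -0.18 for the 62 genes and 0.01 over all tested genes. Quantile normalization gave -0.18 and -0.01. The fold change was below 0 for 36 of the 62 genes, against 31.7% of all tested genes. The 3 H1 RNAi values lay entirely above the 3 control values for 3 genes and entirely below them for 10, where 24.3% and 6.45% of all tested genes did so. At an unadjusted p under 0.05 there were 2 genes higher and 8 lower, where all tested genes gave 19.1% and 4.75%. However, 4 of the genes counted as lower (apolpp, Actbeta, CG32017 and asRNA:CR44031) passed the filter through the control libraries alone, so that their groups could not overlap. Leaving out all genes that passed through 1 group alone, 58 genes of the chromosome remained, with a median of -0.03, against 0.14 over all such genes. Of these, 3 were higher and 6 lower without overlap, where 23.9% and 5.99% of all such genes were, and 2 were higher and 4 lower at an unadjusted p under 0.05, where 18.6% and 4.38% were. None of the 62 log2 fold changes reached 1 in size, as 3.58% of all tested genes did, and 39 of the 62 lay within 0.25 of 0. The share of all tested genes within that limit is not given here. Apart from unc-13 the 62 fold changes ran from -0.74 for Actbeta to 0.55 for asRNA:CR44029.

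**Figure D1:**
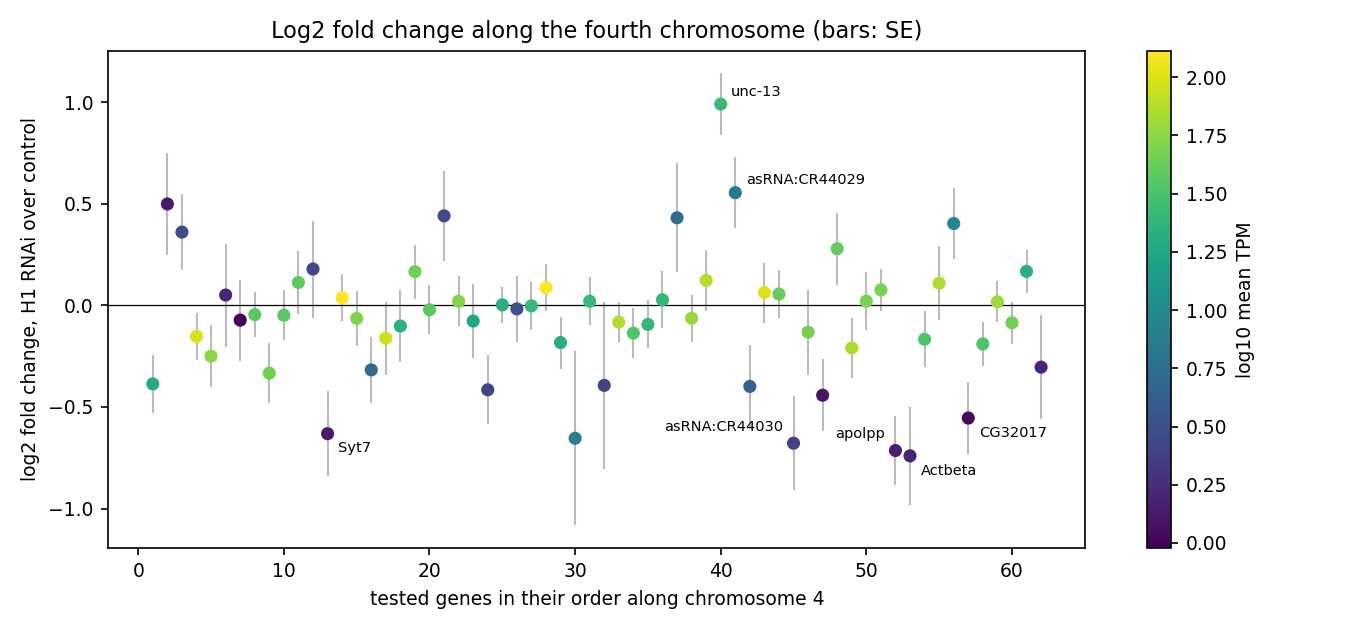
Log2 fold change (H1 RNAi over control, on log2(TPM + 1), vertical axis) of the 62 tested genes in their order along chromosome 4 (horizontal axis), with bars for the SE and colour for the log10 of the mean TPM. The gene unc-13 stands at 0.99, most well-expressed genes lie close to 0, and the lowest points are genes with a mean of about 1 to 3 TPM or, at -0.65, the variable CG1909.

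The gene unc-13 (FBgn0025726, chromosome 4, 867824 to 912331, minus strand, BDGP6.54) spans 44508 bp. It was listed at 39.3, 36.7 and 29.4 TPM in H1 RNAi A, B and C, and at 19.8, 16.9 and 14.8 TPM in control A, B and C. Every H1 RNAi library was above every control library, and the lowest of the H1 RNAi values, that of C, was still well above the highest control value, that of A. The means were 35.1 ± 5.10 TPM in H1 RNAi and 17.2 ± 2.54 TPM in control (SD, n = 3 each), with a log2 fold change of 0.99 ± 0.15 (SE, 95% interval 0.63 to 1.35, adjusted p = 0.0289, limma). The call was lost when H1 RNAi A (adjusted p = 0.101), H1 RNAi B (0.137), control C (0.0981) or H1 RNAi C (0.0601) was left out, and with no filter on low values (0.0601), while the log2 fold change stayed between 0.81 and 1.11 over all alternatives. Its 2 closest tested neighbours in the chromosome's order outside its own span, Gyf and eIF4G1, had log2 fold changes of 0.12 and 0.06 with no call. The summed levels of the enteroendocrine and neuronal marker lists were lower in H1 RNAi, as given above. Of the tested neuronal markers, nSyb, Syt1, cac, brp and Nrx-1 lay below control without overlap, as 6.45% of all tested genes did. Their log2 fold changes ran from -0.90 for nSyb to -0.68 for Nrx-1. Some single markers of the lists were not lower, among them Mip, CCHa2 and elav. Of these, elav averaged 7.65 TPM in H1 RNAi and 6.99 TPM in control, with overlapping groups. The part of the mixture of cells in the values of unc-13 was not tested.

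Inside the unc-13 span lie 3 rows annotated on the opposite strand. The antisense RNA asRNA:CR44029, which shares 5379 bp with it, was at 9.93, 6.87 and 8.20 TPM in H1 RNAi and at 4.61, 5.38 and 5.98 TPM in control, without overlap between the groups (log2 fold change 0.55 ± 0.18, adjusted p = 0.123, limma). The pseudogene CR43361, over 2746 bp, went the other way, with 3.97, 3.98 and 2.76 TPM in H1 RNAi and 4.31, 6.15 and 4.62 TPM in control (log2 fold change -0.40, adjusted p = 0.279). The third, asRNA:CR43425, averaged 0.0533 TPM in H1 RNAi and 0.0833 TPM in control and was not tested. The kit keeps strand, per the labels, but no source used here says whether counting did, and reads of unc-13 and these rows may therefore not be separated.

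**Figure D2:**
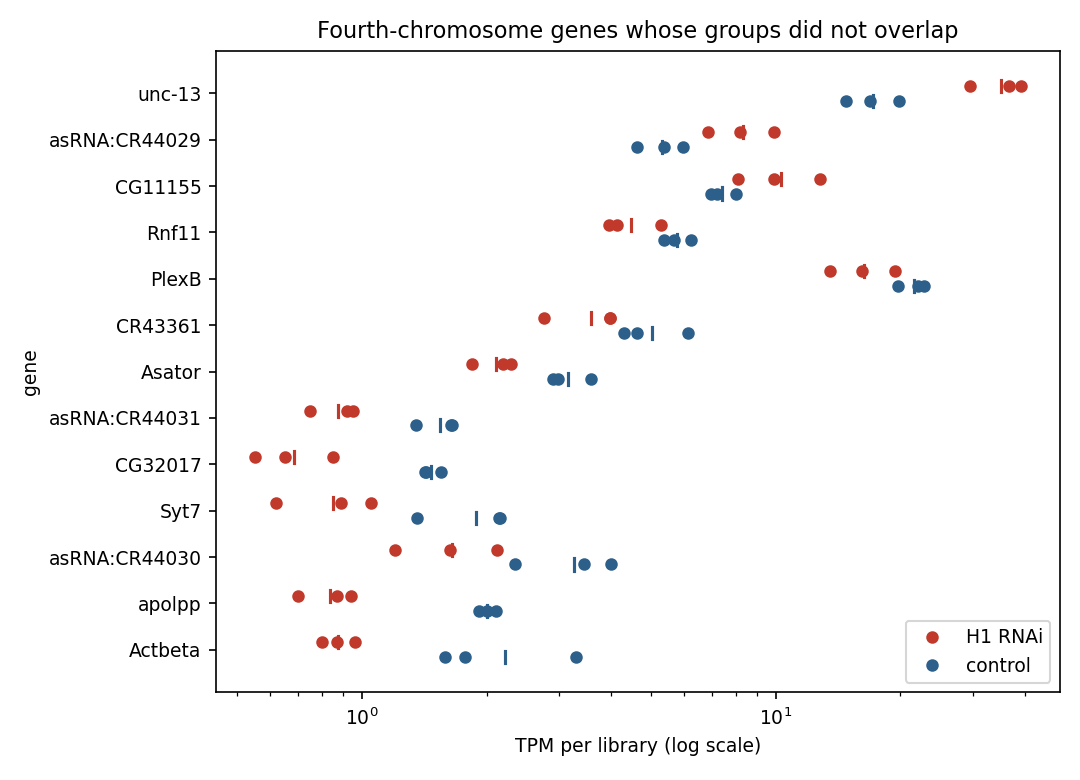
TPM per library on a log axis (horizontal) for the 13 tested genes of chromosome 4 whose 3 H1 RNAi and 3 control values did not overlap, with H1 RNAi above control in each row and a tick at each group's mean. The 3 genes with higher H1 RNAi values are at the top, and 7 of the 10 with lower values had group means of 3.26 TPM or less (Asator, asRNA:CR44031, CG32017, Syt7, asRNA:CR44030, apolpp and Actbeta).

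On the list of vesicle release and calcium signalling, which includes unc-13, 7 genes were tested. Of these, 1 was called higher (unc-13) and none lower, where 2.28% and 0.554% of all tested genes were. At an unadjusted p under 0.05 (limma) there were 2, unc-13 (higher) and Syt7 (lower), where all tested genes gave 19.1% higher and 4.75% lower. Syt7, a synaptotagmin that senses calcium, was at 0.890, 0.620 and 1.05 TPM in H1 RNAi and at 1.36, 2.14 and 2.15 TPM in control (log2 fold change -0.63 ± 0.21, adjusted p = 0.136, limma). The H1 RNAi values of Syt7 were all below all control values, but the gene was near the filter of 1 TPM. Cadps, which primes dense-core vesicles, was at 2.06, 0.860 and 1.17 TPM in H1 RNAi and at 2.08, 2.24 and 1.33 TPM in control, with overlapping groups. The plasma membrane calcium pump gene PMCA was far more abundant, at 85.0 ± 19.3 TPM in H1 RNAi and 94.0 ± 10.6 TPM in control (SD, n = 3 each, adjusted p = 0.629). Enteroendocrine cells also release dense-core vesicles, and the part of the lower enteroendocrine marker sum in the values of Syt7 and Cadps was not tested.

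The chromosome holds 3 ligands of the TGF-beta family. Actbeta, an activin, was listed at 0.870, 0.800 and 0.960 TPM in H1 RNAi and at 1.59, 3.29 and 1.77 TPM in control. Actbeta passed the filter through the controls alone, which fixes that these groups do not overlap, and control B was the highest library (log2 fold change -0.74 ± 0.24, adjusted p = 0.130, limma). Its relative myo (myoglianin) was at 31.1, 21.6 and 24.1 TPM in H1 RNAi and at 25.9, 24.2 and 24.4 TPM in control, with a log2 fold change of 0.03 (95% interval -0.31 to 0.36). The third ligand, mav, stayed at 0.54 TPM or less in each library and was not tested.

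Of 10 genes listed under axon guidance and cell-surface signalling, 4 stayed under the filter (dpr7, mGluR, RhoGAP102A and Kif3C). Of the 6 tested, 0 were called, and 1, PlexB, was lower at an unadjusted p under 0.05 (limma), as 4.75% of all tested genes were. PlexB, a semaphorin receptor, was at 19.5, 16.2 and 13.5 TPM in H1 RNAi and at 19.8, 22.8 and 22.1 TPM in control, so that the groups just failed to overlap (log2 fold change -0.39 ± 0.14, adjusted p = 0.167, limma). The other plexin, PlexA, was at 50.4, 42.5 and 38.1 TPM in H1 RNAi and at 40.6, 65.4 and 40.6 TPM in control, where control B stood apart. Ephrin was at 19.6 ± 2.78 TPM in H1 RNAi and 22.3 ± 1.75 TPM in control, and the calsyntenin gene Cals at 31 ± 5.25 TPM in H1 RNAi and 34.7 ± 2.41 TPM in control (SD, n = 3 each), with log2 fold changes of -0.18 for Ephrin and -0.17 for Cals. The receptor gene Eph, chosen after its values were seen as the partner of Ephrin, had a log2 fold change of 0.02.

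The listed transcription factors and cofactors of the chromosome comprised an expressed and a nearly silent set. Of 16 on the list, 9 were tested and 0 were called (0 at an unadjusted p under 0.05, limma), with a median log2 fold change of -0.06. The Polycomb recruiter pho was at 34.7, 30.8 and 28.6 TPM in H1 RNAi and at 37.6, 36.7 and 33.3 TPM in control (log2 fold change -0.19 ± 0.11, adjusted p = 0.335). The Wnt co-activator lgs was at 48.5, 47.1 and 45.0 TPM in H1 RNAi and at 41.7, 48.9 and 35.4 TPM in control, with overlapping groups (adjusted p = 0.486). The Hedgehog effector ci was low, at 2.04, 1.28 and 1.90 TPM in H1 RNAi and at 0.650, 1.60 and 0.660 TPM in control (log2 fold change 0.50 ± 0.25, adjusted p = 0.279), and control B overlapped the H1 RNAi values. Neuronal or tissue-specific factors stayed under the filter, among them onecut, at 0.570 to 0.680 TPM in H1 RNAi and 0.810 to 1.49 TPM in control.

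The most abundant of the chromosome 4 genes analysed here differed little between groups on the TPM as deposited. Rad23, a shuttle to the proteasome with a role in DNA repair, was at 131 ± 11.1 TPM in H1 RNAi and 128 ± 9.80 TPM in control, and ND-49, a subunit of respiratory complex I, at 134 ± 12.8 TPM in H1 RNAi and 126 ± 7.29 TPM in control (SD, n = 3 each). Their log2 fold changes were 0.04 (95% interval -0.24 to 0.31) and 0.09 (-0.19 to 0.36). The translation scaffold gene eIF4G1 was at 119, 103 and 83.8 TPM in H1 RNAi and at 97.2, 102 and 90.8 TPM in control, and the H1 RNAi libraries thus spanned a wider range than the controls. Ank, an ankyrin of the membrane skeleton, was at 104, 89.8 and 83.9 TPM in H1 RNAi and at 97.5, 107 and 103 TPM in control (log2 fold change -0.15, adjusted p = 0.467, limma). Zyx (zyxin), of focal adhesions, had 49.0 ± 4.43 TPM in H1 RNAi and 46.3 ± 1.06 TPM in control. The RNA regulators gw (GW182, of microRNA silencing), Gyf and 4E-T (an eIF4E partner) had log2 fold changes of -0.08, 0.12 and 0.06, and 0 of the 4 tested genes of mRNA translation and decay was called (0 at an unadjusted p under 0.05, limma). Of the remaining abundant genes, CG11076 was at -0.21, Arf4, a small GTPase, at 0.11 and PIP4K, a phosphoinositide kinase, at 0.02 in log2 fold change. Of the 38 tested genes with a mean of at least 20 TPM, 34 had a log2 fold change within 0.25 of 0 on the TPM as deposited. The matching share of genes elsewhere is not given here, but on the other arms the quartiles from 20 to 100 TPM were -0.02 and 0.29.

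Kinases and small GTPases, DNA repair genes and metabolic genes gave no call over all genes. Of 4 tested kinase and GTPase genes, 1 was lower at an unadjusted p under 0.05 (limma), as 4.75% of all tested genes were. That was Asator, a kinase of the tau-tubulin kinase family, at 2.29, 2.19 and 1.84 TPM in H1 RNAi and at 2.98, 3.57 and 2.89 TPM in control (log2 fold change -0.42 ± 0.17, adjusted p = 0.197), without overlap. Asator shares 2068 bp on the opposite strand with CG33941, at 16.9 TPM in H1 RNAi and 17.9 TPM in control on average. Dyrk3 had a log2 fold change of 0.17 and Arl4 of -0.05. Tdg, a thymine DNA glycosylase matched through an older name, was among the steadiest, at 20.9 ± 0.853 TPM in H1 RNAi and 20.9 ± 0.842 TPM in control (SD, n = 3 each). The zinc transporter gene Zip102B had a log2 fold change of -0.06. The lipophorin gene apolpp, which encodes the lipid carrier of the hemolymph and is a fat body gene, was at 0.87, 0.70 and 0.94 TPM in H1 RNAi and at 1.92, 2.11 and 2.0 TPM in control. The controls lay close together. The gene passed the filter through them alone, which fixes that they lie above all H1 RNAi libraries (log2 fold change -0.71 ± 0.17, adjusted p = 0.0779, limma, and 0.0250 with ordinary moderation). It shares 4033 bp on the opposite strand with the far more abundant Zyx, at 49.0 TPM in H1 RNAi and 46.3 TPM in control on average. Reads of apolpp and Zyx may not be separated. The summed level of 6 fat body markers, apolpp among them, was 6.33 to 8.03 TPM in H1 RNAi and 6.62 to 71.5 TPM in control, and control B alone was above 8.03 TPM. Of the other 5, the yolk protein genes Yp1 and Yp2 were at 0.65 TPM or less in H1 RNAi, and at 43.5 and 22.7 TPM in control B and 0.83 TPM or less in the other controls. Fbp1 was at 0.83 to 1.65 TPM in H1 RNAi and 0.56 to 0.97 TPM in control, Ilp6 at 3.13 to 5.90 TPM in H1 RNAi and 2.19 to 3.28 TPM in control, and Lsp2 at 0.15 TPM or less in all libraries. The part of fat body RNA in the values of apolpp was not tested.

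The remaining genes with values that did not overlap were not on a list. CG11155, a kainate-type glutamate receptor subunit, was at 12.8, 9.89 and 8.11 TPM in H1 RNAi and at 6.99, 7.22 and 8.03 TPM in control (log2 fold change 0.40 ± 0.18, adjusted p = 0.220, limma). CG32017, which overlaps it by 90 bp on the opposite strand, was at 0.550, 0.850 and 0.650 TPM in H1 RNAi and at 1.55, 1.43 and 1.42 TPM in control (log2 fold change -0.55 ± 0.18, adjusted p = 0.129). It passed the filter through the controls alone, as did asRNA:CR44031. CG32017 also shares 14693 bp on the opposite strand with Kif3C, at 0.06 TPM in H1 RNAi and 0.09 TPM in control on average. The antisense RNA asRNA:CR44030 was at 1.63, 2.12 and 1.20 TPM in H1 RNAi and at 3.99, 2.34 and 3.44 TPM in control (adjusted p = 0.142), and asRNA:CR44031 at 0.92, 0.95 and 0.75 TPM in H1 RNAi and 1.65, 1.64 and 1.35 TPM in control (adjusted p = 0.188). It shares 685 bp with Mpv17 on the opposite strand, which averaged 43.5 TPM in H1 RNAi and 35.7 TPM in control. The ubiquitin ligase gene Rnf11 was the last of the 10, with 5.27, 3.96 and 4.14 TPM in H1 RNAi and 5.38, 6.25 and 5.69 TPM in control. It shares 3195 bp on the opposite strand with PMCA, at 85.0 TPM in H1 RNAi and 94.0 TPM in control on average. In all, 28 of the 62 tested genes overlap another row of the chromosome, and the reads of such pairs may not be separated.

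The remaining tested genes had overlapping groups. Their lowest log2 fold change was that of CG1909, at 8.54, 3.23 and 4.86 TPM in H1 RNAi and at 10.7, 13.4 and 4.51 TPM in control (-0.65 ± 0.43, adjusted p = 0.395, limma), and their highest was 0.44, of asRNA:CR45126. The glutamate receptor gene Ekar was at 3.69, 1.07 and 1.52 TPM in H1 RNAi and at 3.03, 4.69 and 1.42 TPM in control (adjusted p = 0.603), where both groups spread widely. The gene anne was at 62.4, 48.1 and 42.5 TPM in H1 RNAi and at 60.5, 63.5 and 56.4 TPM in control (log2 fold change -0.25, adjusted p = 0.363, limma). H1 RNAi B and C were its lowest libraries, and H1 RNAi A lay within the range of the controls. CaMKII, the calcium/calmodulin kinase of synapses, was at 48.5 ± 7.37 TPM in H1 RNAi and 47.6 ± 4.86 TPM in control. The general factors Taf3 and MED26 and the lysosomal regulator Mitf had log2 fold changes of 0.02, -0.06 and -0.09. Of the noncoding rows, lncRNA:CR45200 was at 7.97, 4.55 and 6.30 TPM in H1 RNAi and at 6.30, 3.37 and 3.65 TPM in control (adjusted p = 0.371). Over the 10 tested noncoding rows the median log2 fold change was 0.11, and over the 52 protein-coding genes it was -0.07.

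The position of the chromosome's median depended on the library. The median deviation of the 62 genes from their own means over the 6 libraries, on log2(TPM + 1), was 0.15 in H1 RNAi A, -0.06 in H1 RNAi B and -0.19 in H1 RNAi C, and 0.04, 0.08 and -0.03 in control A, B and C. For the other tested genes it was 0.12, 0.09 and 0.00 in H1 RNAi A, B and C, and -0.02, -0.04 and -0.15 in the controls. Relative to other genes, the chromosome 4 genes were thus low in H1 RNAi B and C, not in H1 RNAi A, and high in all 3 controls. H1 RNAi C was the lowest of the 6 libraries for 32 of the 62 genes and the highest for 0, while 13.1% of all tested genes were lowest there and 7.24% highest. The 106 genes together took 2273, 2039 and 1814 TPM in H1 RNAi A, B and C, and 2079, 2153 and 1967 TPM in control A, B and C. These sums overlapped between the groups, with means of 2042 ± 230 TPM in H1 RNAi and 2066 ± 93.6 TPM in control (SD, n = 3 each). Without H1 RNAi C the median log2 fold change of the 62 genes was 0.02, against 0.17 over all tested genes, and without H1 RNAi A it was -0.12 against 0.11.

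**Figure D3:**
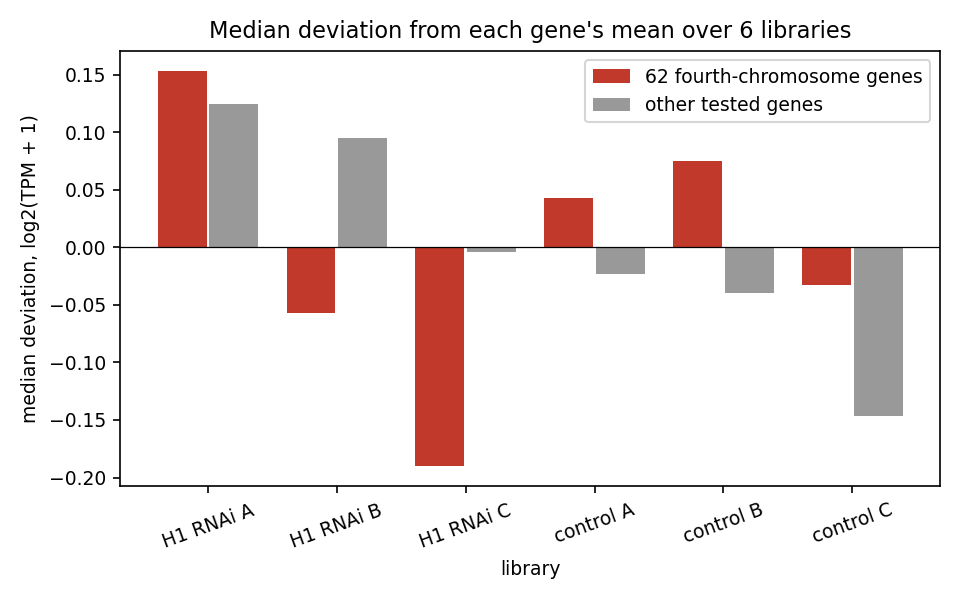
Median deviation of log2(TPM + 1) from each gene's mean over the 6 libraries (vertical axis) in each library (horizontal axis), in red for the 62 tested genes of chromosome 4 and in grey for the other tested genes. The red bars lie below the grey ones in H1 RNAi B and C, at -0.06 and -0.19, and above them in H1 RNAi A and all controls.

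Genes of like level on the other arms were compared in bands of mean TPM. In the band from 20 to 100 TPM, the 36 genes of chromosome 4 had a median log2 fold change of -0.03 (quartiles -0.13 and 0.06) and the 3130 genes of the other arms one of 0.13 (quartiles -0.02 and 0.29). In that band 20 of 36 genes were below 0, against 27.6% of genes on the other arms. The band from 5 to 20 TPM held 7 genes of chromosome 4 with a median of -0.08, against 0.22 for 2286 genes elsewhere. Below 5 TPM the medians were -0.39 for 17 genes of chromosome 4 and 0.12 for 1582 others. Of those 17, 4 passed the filter through the control libraries alone (apolpp, Actbeta, CG32017 and asRNA:CR44031) and so had to differ. The median of the other 13 was -0.07. Over all 1508 tested genes under 5 TPM that did not pass through 1 group alone, it was 0.11. Of the chromosome 4 genes analysed here, only Rad23 and ND-49 were at 100 TPM or more. Their median was 0.06, against 0.02 for 991 genes elsewhere. By arm, the medians were 0.12 on X, 0.15 on 2L, 0.14 on 2R, 0.12 on 3L and 0.15 on 3R, each over 1358 to 1981 tested genes. The difference between the median of the chromosome and that of all tested genes was -0.19 as deposited, -0.19 with trimmed-mean (TMM) scaling and -0.17 with quantile normalization. TMM scaling moved the median of all tested genes by more than 0.1, to 0.01, and that of the chromosome 4 genes to -0.18, with 51 of 62 genes below 0. No test of this difference was made, since the genes of a chromosome are not replicates.

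**Figure D4:**
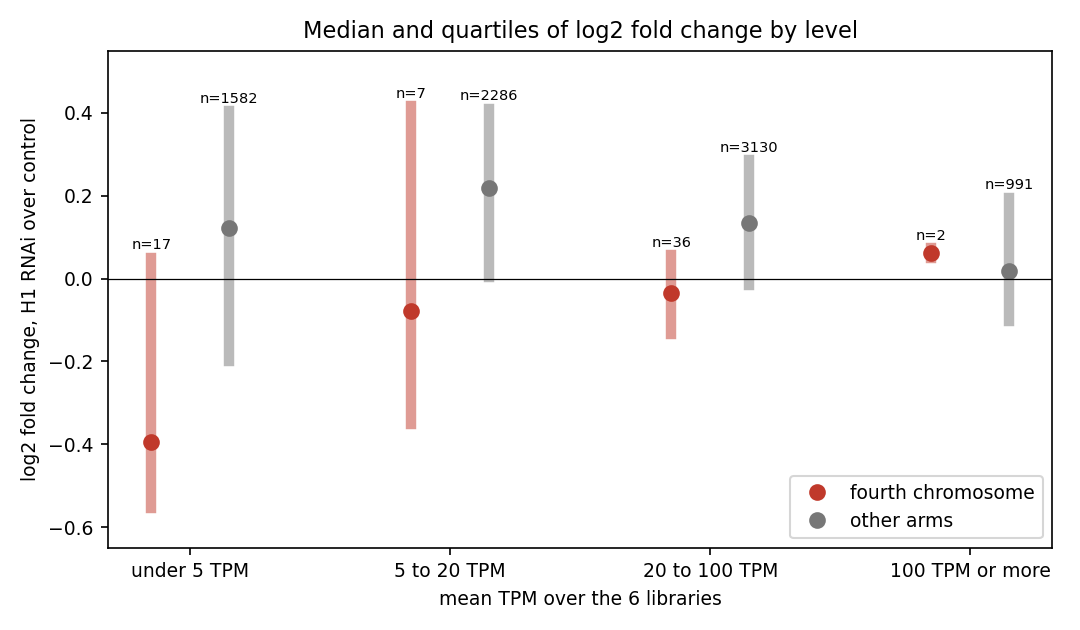
Median (point) and quartiles (bar) of the log2 fold change, H1 RNAi over control (vertical axis), by band of mean TPM (horizontal axis), in red for the fourth chromosome and in grey for genes of the 5 other arms, with the number of genes above each bar. In the 3 bands below 100 TPM the red points lie at -0.39, -0.08 and -0.03, under grey points at 0.12, 0.22 and 0.13. The lowest band includes 4 genes that passed the filter through control alone, and without them its median for chromosome 4 was -0.07. Over all tested genes of that band that did not pass through 1 group alone, the median was 0.11.

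The chromosome 4 genes differ from the rest in structure. The tested ones span a median of 8406 bp, against 2512 bp over all tested genes, in a median of 7 exon blocks against 4. At least 1 annotated transposon insertion lay within the span of 46 of the 62 (74.2%), against 7.37% of all tested genes, and the share of the span annotated as transposon had a median of 10.7% and a maximum of 57.0%, in CG11360. Longer genes elsewhere also had lower medians. Between 5 and 20 kb and from 20 to 100 TPM, the median log2 fold change was -0.04 for 26 genes of chromosome 4 and 0.05 for 767 genes of other arms. Genes under 5 kb at that level had medians of 0.02 for 7 genes of chromosome 4 and 0.18 for 2114 others. At 20 kb or more and that level, they were -0.09 for 3 genes of chromosome 4 and -0.02 for 249 others. Over any level, genes of 20 kb or more had medians of -0.23 for 6 genes of chromosome 4 and -0.05 for 575 others. Chromosome 4 genes with an annotated transposon had a median of -0.10 and the 16 without one a median of 0.04, against 0.02 for 551 and 0.15 for 7438 genes of the other arms. Among genes of 5 to 20 kb, the medians were -0.09 for 34 genes of chromosome 4 with a transposon and 0.17 for the 3 without, while on the other arms both were 0.04. Those 3 were lgs (0.17), myo (0.03) and asRNA:CR44029 (0.55). The last lies inside unc-13, and its reads may not be separated from those of unc-13. Across the 62 genes, the share of the span taken by transposons and the log2 fold change had a Spearman correlation of -0.39, which was -0.21 over the 36 genes from 20 to 100 TPM. These points share the same 6 libraries. The long, transposon-rich genes Syt7 (48.4% of its span) and CG32017 (36.5%) were also among the lowest in level. Other transposon-rich genes were not, among them CG11360, pho and Ank (36.3%), with means of 24.7, 33.6 and 97.5 TPM over the 6 libraries. As a set, the chromosome 4 genes with an annotated transposon had a higher median of mean TPM, at 26.1, than those without one. By itself unc-13 goes against the negative correlation, with 16 insertions over 16.2% of its span, and pho, at 48.8%, had a log2 fold change of -0.19. The part of gene length and transposon content in the lower medians was not tested.

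**Figure D5:**
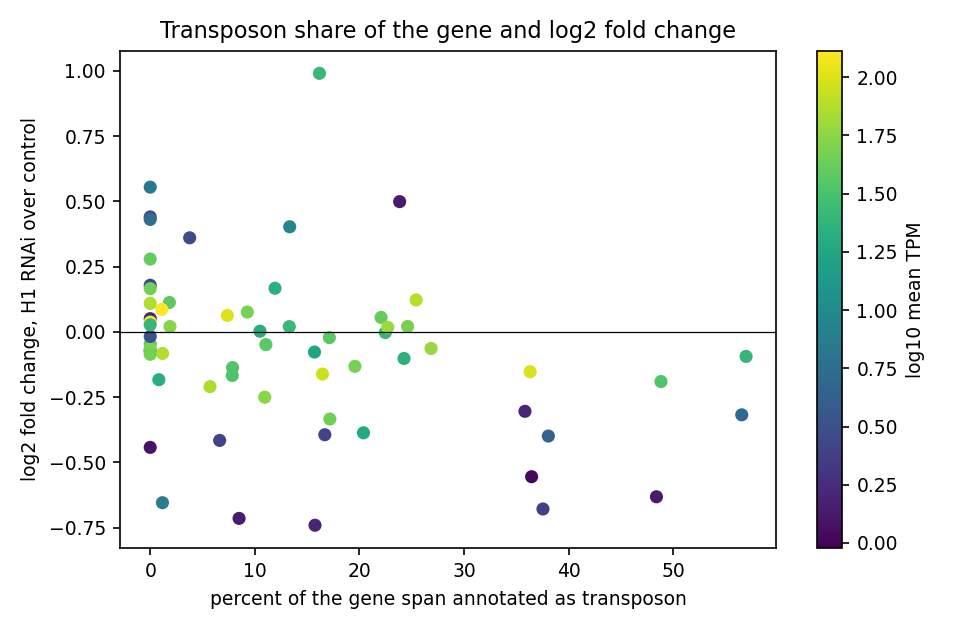
Percent of the gene span annotated as transposon (horizontal axis) against the log2 fold change, H1 RNAi over control (vertical axis), for the 62 tested genes of chromosome 4, coloured by the log10 of the mean TPM. Dark points, the genes with the lowest levels, make up most of the fold changes below -0.4, and unc-13 is the single point near 1.

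The 44 genes of chromosome 4 that were not tested comprise 21 protein-coding genes and 23 others. Of these, 9 were listed at 0 in all libraries and the highest single value among the rest was 1.97 TPM, of dati in H1 RNAi A. In 35 genes with a value above 0, the H1 RNAi values lay entirely above the control values for 6 and entirely below them for 5, where 5.39% and 5.17% of all such rows of the table did so. The higher ones, named after their values were seen, were dati, fuss, mGluR, Gat, CG33978 and the pseudogene CR32010. The zinc-finger gene dati was at 1.97, 0.830 and 1.09 TPM in H1 RNAi and at 0.820, 0.540 and 0.270 TPM in control, so that its groups nearly touched. The Ski/Sno family gene fuss was at 0.790, 1.01 and 0.800 TPM in H1 RNAi and at 0.230, 0.590 and 0.370 TPM in control. CR32010 was at 0.480, 0.210 and 0.330 TPM in H1 RNAi, and at 0.0200, 0.0300 and 0.0200 TPM in control. The metabotropic glutamate receptor gene mGluR was at 0.0600, 0.270 and 0.270 TPM in H1 RNAi and at 0.0300 TPM or less in control. The lower ones were onecut, Sox102F, CG33521, lncRNA:CR44441 and JYalpha. At such levels the number of reads behind a value is unknown and a change cannot be judged. The muscle gene bt (projectin), the longest of the chromosome 4 genes analysed here, stayed at 0.74 TPM or less in each library.

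Chromatin factors encoded elsewhere, among them those known to act on the fourth chromosome, gave no call. Of 13 such genes tested, 0 passed over all genes and 5 had an unadjusted p under 0.05 (limma), with a median log2 fold change of 0.20 and values from -0.30, for the methyltransferase gene G9a, to 0.61, for HP4. Of the 5, G9a was lower and HP4, HP5, Su(var)3-7 and Su(var)3-9 were higher. Over all tested genes, 19.1% were higher and 4.75% lower at that p. HP4, HP5, Su(var)3-7, Su(var)3-9, Lhr and Pof lay above control without overlap and G9a below, where 24.3% and 6.45% of all tested genes did so. Pof was at 15.2, 15.2 and 15.7 TPM in H1 RNAi and at 13.3, 14.0 and 13.7 TPM in control, without overlap (log2 fold change 0.16 ± 0.09, adjusted p = 0.329, limma). Its fold change was close to the median of all tested genes. The HP1a gene was at 173, 160 and 133 TPM in H1 RNAi and at 148, 114 and 107 TPM in control (log2 fold change 0.34, adjusted p = 0.267), with overlapping groups. The methyltransferase gene Su(var)3-9 was at 15.5, 13.3 and 11.4 TPM in H1 RNAi and 10.2, 9.67 and 9.21 TPM in control (adjusted p = 0.129), and egg at 8.29 ± 0.604 TPM in H1 RNAi and 7.09 ± 0.637 TPM in control (SD, n = 3 each, adjusted p = 0.397).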

How the data were processed

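Sorted midgut progenitors gave 3 H1 RNAi and 3 control libraries, grouped by sample title. The authors deposited TPM, rounded to 2 decimals, and the depth is unknown. Libraries were made with a stranded mRNA kit, per the labels' protocols, and the submitters' processing notes name bcl2fastq and dm6. No source used here names the aligner or the counting tool. Of 17807 rows, 17710 matched the annotation.

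The 8124 genes that reached 1 TPM in 3 or more of the 6 libraries were fitted with limma 3.58.1 in R 4.3.3 on log2(TPM + 1), which understates changes near 1 TPM, with a mean trend and robust moderation, and p-values were adjusted by Benjamini and Hochberg over all of them. The script was first tested on simulated data. With 3 libraries a side, exact permutation goes no lower than p = 0.1 and was not used. Summaries used Python 3.11.15 and pandas 2.3.3. Transposon insertions and spans come from the annotation.

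The genes and lists were chosen with earlier results of these data known. Named genes were those called, the 10 most abundant, up to 6 rises and 6 falls without overlap and up to 3 of each list by p, and others are given as members of a list or of a count. Of 57 names on the role lists, 3 matched no row of the chromosome. Lists for visceral muscle (2 of 10 tested, 1 called higher), hemocytes (2 of 6), trachea (1 of 5) and fat body (2 of 6) had no other call. The 1 called, vkg, was at 3.81, 2.43 and 2.54 TPM in H1 RNAi and at 0.19 TPM or less in control. It passed the filter through H1 RNAi alone, so that its groups could not overlap. The other tested visceral muscle marker, Mlc2, had a log2 fold change of -0.07. Alternatives were other pseudocounts (0.1 and 5), filters (none and 5 TPM), TMM scaling (trims of 0.3 and 0.05), quantile normalization, ordinary moderation, array weights, a replicate block and leaving out each library.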

Additional observations from a re-analysis of the deposited data

How the results depend on the processing

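The count of called chromosome 4 genes, 1 as reported, was 0 with no filter on low values, where the gene lost was unc-13 (adjusted p = 0.0601), and 2 with ordinary moderation, which added apolpp (lower in H1 RNAi, adjusted p = 0.0250), a gene that passed the filter through the controls alone. Leaving out 1 library gave 0 to 1 called genes: 1 without control A or control B, and 0 without control C or without any of the 3 H1 RNAi libraries. Over all genes, 29 to 57 were called in the 4 fits that lost unc-13, and 82 without control A and 450 without control B. The cause was not tested. The count stayed at 1 with pseudocounts of 0.1 and 5, a filter at 5 TPM, TMM scaling, quantile normalization and array weights. For unc-13 the adjusted p ranged from 0.0188 to 0.137 over 15 alternatives, 10 of which kept the call. The median log2 fold change of the chromosome ranged from -0.12 to 0.02 on leaving out 1 library and was -0.18 with TMM scaling or quantile normalization. Its difference from the median of all tested genes was -0.23 to -0.15 on leaving out 1 library, and -0.07 with no filter. With no filter 13713 genes were fitted in place of 8124, with 35 more low genes of the chromosome. The median of all tested genes then went from 0.14 to 0.04, and that of the chromosome from -0.06 to -0.04. The difference between the median of the chromosome and that of all tested genes was below 0 in all 15 alternatives run. The replicate letters were not taken as pairs: deviations of same-letter libraries correlated at 0.40 for A, 0.14 for B and 0.09 for C, and H1 RNAi C correlated best with control B. With the replicate block 1 gene of chromosome 4 was called, unc-13 (adjusted p = 0.0188), and 142 genes in all. Depth is unknown, so counting error of genes near 1 TPM cannot be given.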
